A study of Caenorhabditis elegans with 2 samples.

Results

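The centrosome and centriole genes are 10 C. elegans genes chosen by name, sas-4, sas-5, sas-6, spd-2, spd-5, zyg-1, tbg-1, gip-1, air-1 and zyg-9, out of 19973 protein-coding genes on the 6 nuclear chromosomes. Occupancy of their starts by EFL-1 was read from ChIP-seq, in which DNA bound by a protein is recovered with an antibody and sequenced, here with an antibody labelled efl-1. The material was whole hermaphrodite L1 larvae of the strain N2, the C. elegans wild type, kept at 26 °C, with 2 biological replicates from separate biosamples and no second condition. A whole larva mixes tissues, so occupancy in few cells and weak occupancy in many cannot be told apart. A control library entered the authors' peak calls but was not analysed here.

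The centrosome organises microtubules and builds the poles of the mitotic spindle. At its core lies a pair of centrioles, which duplicate before each division through an ordered pathway worked out largely in C. elegans embryos: SPD-2 recruits the kinase ZYG-1, which brings in SAS-5 and SAS-6 to form the central tube, and SAS-4 then adds the microtubules of the wall. Around the centrioles, SPD-5 and SPD-2 assemble the pericentriolar material, which holds γ-tubulin complexes and grows before mitosis under the Aurora A and Polo-like kinases. EFL-1 is an E2F family transcription factor that works with the partner DPL-1, and genetic work in C. elegans has linked both to centriole duplication.

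A gene is called bound here when a summit of the set thresholded by the irreproducible discovery rate (IDR) lay in its promoter window, from 500 bp upstream to 200 bp downstream of the annotated start. Positions of summits are given from the start of the named gene, with a minus sign for upstream. Neighbours, shared windows, exons and places between genes refer to protein-coding genes only. The IDR set held 4835 peaks, called on the pooled reads of both replicates, and relaxed lists of the pooled reads and of each replicate held 28817 to 30000 peaks and background regions. Each peak has a score given by the authors, used here only within a list; the lowest score in the IDR set was 59.6 and its median was 179.8.

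Of the 10 genes, 5 were bound, namely sas-6, sas-5, zyg-1, spd-2 and air-1. By the same rule 15.2% of all protein-coding genes were called. In centriole assembly, where spd-2 is counted, 4 of the 5 genes were bound, all but sas-4. None of the 3 genes counted under the pericentriolar material alone (spd-5, tbg-1 and gip-1) was bound in its window. With 15.2% of all genes called, none among 3 genes is no result about that role. An IDR summit lay 212 bp inside spd-5, just beyond the window, and tbg-1 and gip-1 closely follow other genes on their strand. The gene spd-2 acts in both, and with it there 1 of 4 would be bound. Of the remaining pair air-1 was bound and zyg-9 was not. These counts are too small to tell the roles apart. All 5 peaks of the bound members were among the upper ranks of the IDR set (ranks up to 2417), as were those of 68.4% of all bound genes. Their median score was 666.8, against 325.3 over all 3027 bound genes.

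Of the 5 unbound genes, 4 had an IDR summit outside the window but within 1000 bp of the start. Those near sas-4, tbg-1 and spd-5 lay in the promoter windows of F10E9.11, rpac-19 and npp-6, so they need not mark occupancy for the members. With a window from 1000 bp upstream to 500 bp downstream, 9 of the 10 genes held a summit, all but gip-1, against 19.1% of all genes. A tighter window, reaching 300 bp upstream and 100 bp downstream, called the same 5 genes as the main window, against 11.7% of all genes.

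**Figure D1:**
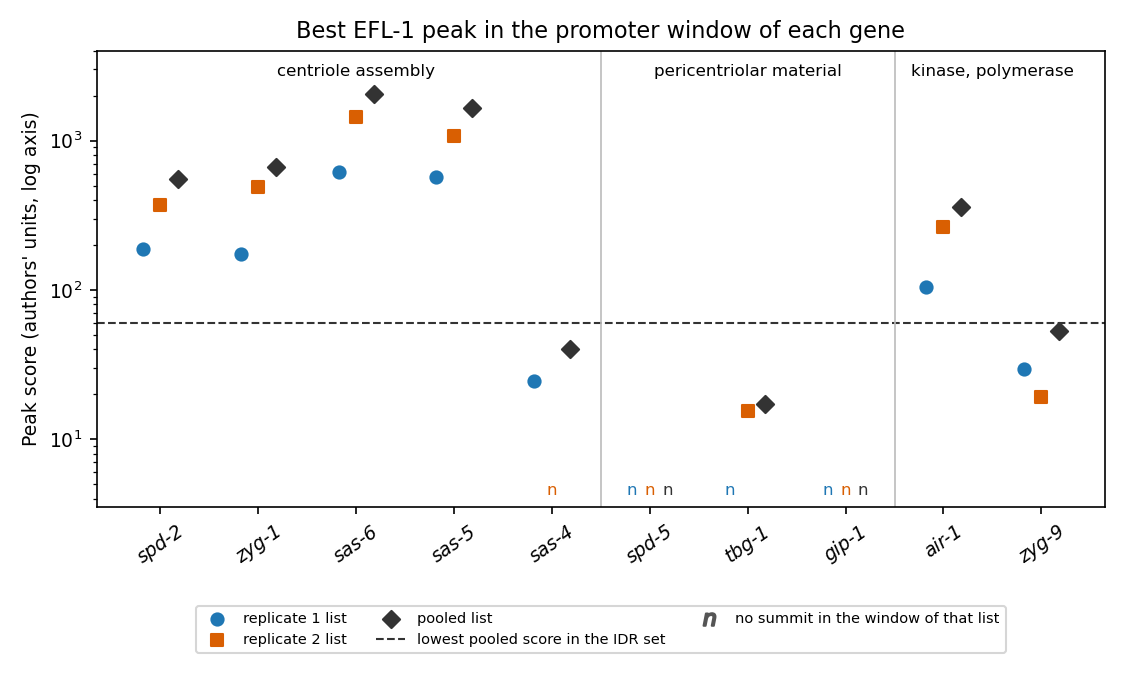
Score of the best peak in the promoter window of each gene, in the lists of replicate 1, replicate 2 and the pooled reads (log axis, authors' units; n marks a list with no summit in the window). The bound genes have pooled scores from 360.2 to 2056, and those of the unbound genes with a summit, sas-4, tbg-1 and zyg-9, lie under the lowest IDR score of 59.6.

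The sequences around 4 of the 5 bound summits are shown to place the E2F-type motifs; that of spd-2 is not printed here. Each run is read 5′ to 3′ on the strand of the named gene, from the WBcel235 (ce11) sequence of RefSeq, up to 75 bases to each side of the summit and cut where an annotated exon begins. Capitals mark matches on either strand to the E2F consensus (TTNNCGC, with each N a C or a G) or to a shorter core (NGCGC, with N a C or a G), which lies inside some forms of the consensus. The runs lie at V:11610603-11610736 (plus strand), IV:13788757-13788906 (minus strand), II:5649556-5649706 (plus strand) and V:8221317-8221401 (plus strand), all between protein-coding genes.
sas-5: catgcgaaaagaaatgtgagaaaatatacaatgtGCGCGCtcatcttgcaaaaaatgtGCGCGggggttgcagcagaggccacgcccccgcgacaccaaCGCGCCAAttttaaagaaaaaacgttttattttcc
sas-6: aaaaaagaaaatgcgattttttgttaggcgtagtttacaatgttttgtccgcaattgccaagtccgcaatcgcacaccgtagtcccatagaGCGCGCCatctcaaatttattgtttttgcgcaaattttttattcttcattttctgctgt
zyg-1: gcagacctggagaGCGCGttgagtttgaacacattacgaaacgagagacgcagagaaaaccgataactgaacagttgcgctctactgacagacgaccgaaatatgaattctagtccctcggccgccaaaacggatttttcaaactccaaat
air-1: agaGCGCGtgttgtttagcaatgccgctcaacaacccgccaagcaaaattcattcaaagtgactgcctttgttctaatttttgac

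The peak at sas-6 had the highest score of any in the promoter windows of the 10 genes. SAS-6 is the coiled-coil protein whose dimers form the scaffold of a new centriole. The gene (IV:13786945-13788731, minus strand) had its peak at IV:13788657-13789026, with a summit at -101 bp, between protein-coding genes. Its score was 2056 in the IDR set, 619.8 in replicate 1 and 1439 in replicate 2, and it ranked 258 of 4835, 311 of 28817 and 233 of 30000. The peak was thus near the top of every list. The gene Y45F10D.7 starts 176 bp away on the opposite strand, and the summit lay nearer to it, at -75 bp from its start. Occupancy for either gene cannot be told apart.

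The peak at sas-5 was the only one of the 5 in no other protein-coding gene's window. SAS-5 travels with SAS-6 to the forming centriole. The gene (V:11610737-11612596, plus strand) had its peak at V:11610514-11610851, with the summit at -59 bp. The score was 1643.4 in the IDR set, 568.9 in replicate 1 and 1077.5 in replicate 2, with ranks of 348, 350 and 348. The rank was therefore nearly the same in all lists. The nearest other start, that of piit-1 on the opposite strand, lay 588 bp from that of sas-5 and was not bound.

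The genes of the upstream kinase and of its recruiter had weaker peaks. ZYG-1, the kinase that starts duplication, is encoded at II:5649748-5654422 on the plus strand, and its peak at II:5649491-5649765 had its summit at -117 bp. It scored 666.8 in the IDR set (rank 846), 173.1 in replicate 1 (rank 1099) and 491.6 in replicate 2 (rank 742). The same summit lay in the windows of F59E12.17 and sam-4, which are transcribed the other way, at -161 bp and -345 bp from their starts.

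SPD-2, needed both for centriole duplication and for the pericentriolar material, is encoded at I:8966985-8970081 on the minus strand. The peak at I:8970054-8970300 had its summit at -94 bp. It scored 551.1 in the IDR set (rank 1001), 186.7 in replicate 1 (rank 1038) and 369.7 in replicate 2 (rank 971). The summit was also at -116 bp from F32H2.10, whose start lies 210 bp away on the opposite strand.

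At sas-4, the gene of the protein that loads microtubules onto the centriole wall, the own start was unbound and a strong peak lay further upstream. In the window of sas-4 (III:8314349-8318588, minus strand) the best pooled summit scored 40.1 (rank 6396), 174 bp inside the gene in coding sequence. Replicate 1 had a summit of score 24.7 (rank 4502) at 53 bp inside the gene, and replicate 2 had none. The peak at III:8319097-8319539, with its summit at -728 bp, scored 3241.1 in the IDR set (rank 121), 1201.3 in replicate 1 (rank 119) and 2087.6 in replicate 2 (rank 126). It was stronger than the peak at sas-6. This summit was at -56 bp from F10E9.11, which is read in the same direction and ends 89 bp before sas-4 begins.

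**Figure D2:**
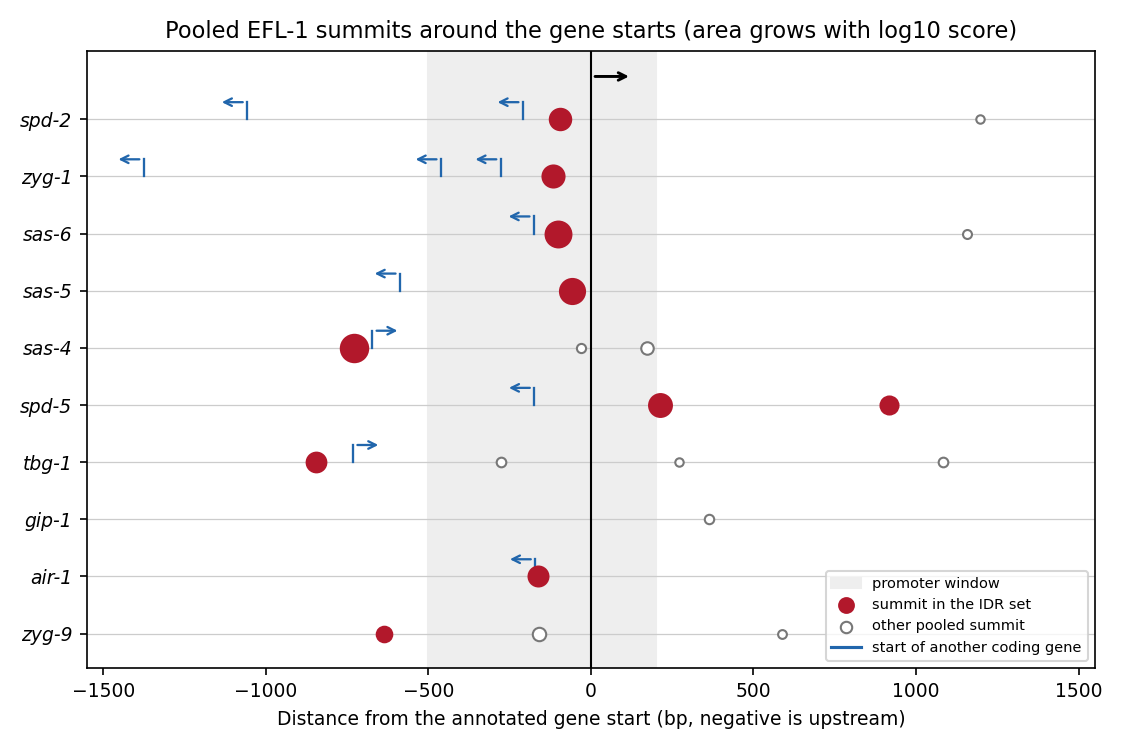
Pooled summits within 1500 bp of the annotated start of each gene, drawn in the direction of transcription, with filled points for the IDR set, open points for other pooled summits and areas that grow with the log10 score. Arrows mark the starts and direction of other protein-coding genes; 4 of the 5 bound genes share their summit with an arrow pointing away, while the strongest summits of sas-4 and tbg-1 sit at a start of the same direction upstream.

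The genes of the pericentriolar material differed in where the nearest peak lay. SPD-5 forms its scaffold. No list had a summit in the window of spd-5 (I:5171275-5176654, minus strand), but an IDR summit lay 212 bp inside the gene, in an intron and just beyond the window. It scored 851.4 in the IDR set (rank 674), 332.8 in replicate 1 (rank 611) and 540.9 in replicate 2 (rank 687), higher than the peaks of zyg-1 and spd-2 in each list. It fell in the window of npp-6, a nucleoporin gene that starts 175 bp away on the opposite strand, at -387 bp from that start.

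A second IDR summit in spd-5 lay 918 bp inside the gene, also in an intron. It scored 203.5 in the IDR set (rank 2209), 48.8 in replicate 1 (rank 2798) and 160.2 in replicate 2 (rank 1936). A shorter annotated transcript of spd-5 starts 946 bp inside the gene, shortly after that summit. With the starts of all annotated transcripts, spd-5 counted as bound and the total was 6 of 10, against 16.2% of all protein-coding genes.

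At tbg-1, which encodes γ-tubulin, the own window held only weak signal. The best pooled summit in the window of the gene (III:9626536-9629154, minus strand) scored 17.2 (rank 14494), with a −log10 q of 0.36, and lay at -278 bp in the coding sequence of rpac-19, the gene before it. Replicate 2 had a summit of score 15.4 there, and replicate 1 had none. At the start of rpac-19, which encodes a subunit shared by RNA polymerases I and III and ends 91 bp before tbg-1, an IDR summit scored 336.4 (rank 1514), 152.5 in replicate 1 (rank 1220) and 180.7 in replicate 2 (rank 1776). The first gene of the same run, ubc-7, a ubiquitin-conjugating enzyme gene with its start at -2013 bp from that of tbg-1, had a far stronger peak. That peak scored 4250.8 in the IDR set (rank 69), 1355.5 in replicate 1 (rank 93) and 2915.3 in replicate 2 (rank 59).

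The gene gip-1, which encodes a γ-tubulin complex protein that anchors γ-tubulin, was the only one of the 10 with no IDR summit within 1500 bp. No list had a summit in its window (III:2347591-2362056, plus strand). Within 1500 bp of the gene the pooled list had 7 summits, none in the IDR set, and the highest of them scored 16.2 at 362 bp inside the gene. The gene phf-5 ends 261 bp upstream on the same strand, and the first gene of that run, ppm-1.D, has its start at -16019 bp and a peak of score 1912.3 (rank 282), with ranks of 288 and 269 in replicates 1 and 2.

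AIR-1, the Aurora A kinase that drives centrosome maturation, had the weakest of the 5 bound starts. The gene (V:8221488-8223582, plus strand) had its peak at V:8221207-8221458 with the summit at -162 bp, between protein-coding genes. It scored 360.2 in the IDR set (rank 1441), 104 in replicate 1 (rank 1658) and 262 in replicate 2 (rank 1319). The summit was at -10 bp from cogc-6, a gene of a Golgi tethering complex that starts 172 bp away on the opposite strand. It was thus much nearer to the start of cogc-6 than to that of air-1.

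ZYG-9, a microtubule polymerase of the XMAP215 family, was the member closest to the threshold. In the window of zyg-9 (II:8457818-8464512, plus strand) the best pooled summit lay at -161 bp and scored 52.9 (rank 5244), just under the lowest IDR score. The −log10 q at that summit was 4.04, the highest value in the pooled list, which 5424 peaks share. The summit scored 29.7 in replicate 1 (rank 3915) and 19.1 in replicate 2 (rank 8108). The ranks in the replicates thus lay on either side of 4835. A further summit at -635 bp was in the IDR set with a score of 98.5 (rank 3552), 27.2 in replicate 1 (rank 4179) and 78.2 in replicate 2 (rank 3222), and belonged to no promoter window.

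Genes that follow another gene closely on the same strand may be transcribed from the promoter of the first one, since C. elegans groups many genes in operons. By a gap of at most 500 bp, 3 of the 10 genes (sas-4, tbg-1 and gip-1) were possible downstream genes of such runs, as were 18.1% of all genes, and 0 of these 3 were bound, against 11.1% of all possible downstream genes. Of the other 7 members, 5 were bound, against 16.0% of all genes that were not possible downstream genes. When a gene was also counted through the first gene of its run, an alternative chosen after seeing the data, 7 of 10 members were called, tbg-1 and gip-1 in addition, against 20.2% of all genes. The peak upstream of sas-4 did not count there, because the run of genes reached further to F10E9.10, which was not bound. The runs rest on distance alone and were not compared with mapped operons.

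The peaks before 2 genes upstream of sas-4 and tbg-1 are shown because they were the strongest in those runs of genes. The sequence before F10E9.11 lies at III:8319261-8319391 and that before ubc-7 at III:9631416-9631566, both on the minus strand, with the same capitals.
F10E9.11: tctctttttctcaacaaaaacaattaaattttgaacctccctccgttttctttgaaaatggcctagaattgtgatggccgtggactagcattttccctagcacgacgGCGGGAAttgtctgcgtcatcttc
ubc-7: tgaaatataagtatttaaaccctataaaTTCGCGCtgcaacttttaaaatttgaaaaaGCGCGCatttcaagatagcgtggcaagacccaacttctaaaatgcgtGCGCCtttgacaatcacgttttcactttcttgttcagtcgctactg

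Any pooled relaxed summit was found in the windows of 8 of the 10 genes, all but spd-5 and gip-1, against 32.7% of all genes. Among as many top peaks of replicate 1 alone as the IDR set holds, 7 members were called, with sas-4 and zyg-9 in addition, against 14.8% of all genes. Among those of replicate 2 alone, the same 5 members as in the IDR set were called, against 15.3% of all genes. The calls at sas-4 and zyg-9 therefore rested on replicate 1.

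The order of the bound genes by pooled score was sas-6, sas-5, zyg-1, spd-2 and air-1, and 9 of the 10 pairs among them kept their order in both replicates. The exception was zyg-1 with spd-2, where the log2 score of zyg-1 was lower by 0.11 in replicate 1 (a difference of -0.11) and higher by 0.41 in replicate 2. Between sas-6 and sas-5 the log2 difference was 0.12 in replicate 1 and 0.42 in replicate 2. From sas-5 down to zyg-1 it was 1.72 and 1.13, and from spd-2 down to air-1 it was 0.84 and 0.50. Over 2407 matched peaks of the upper ranks, the log2 ratio of replicate 2 to replicate 1 had an SD of 0.385. The differences between sas-6 and sas-5, and between zyg-1 and spd-2, were under that SD in replicate 1 and slightly above it in replicate 2. The step from sas-5 to zyg-1 exceeded it in both replicates, and so did that from spd-2 to air-1, by less in replicate 2 (0.50). The SD of 0.385 is taken over different peaks, so it does not measure the error of a difference between genes and decides no order. The spread of each of these peaks by itself is not known from 2 replicates.

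The scores of different lists have no common scale, so the ratio between replicates is read only against its median over all peaks. The log2 ratio of replicate 2 to replicate 1 had a median of 0.96 and an SD of 0.542 over 4718 IDR peaks with a summit within 100 bp in both lists. The 5 bound members had ratios from 0.92 at sas-5 to 1.51 at zyg-1. By this SD over all matched peaks, the ratio at zyg-1 was 1.01 SD above the median and the other 4 were nearer to it. The SD over the upper ranks, where all 5 peaks lie, was smaller (0.385). The rank in the 2 replicates differed by 357 at zyg-1 and 339 at air-1, more than the median of 141 over the upper ranks and of 292 over all matched peaks, and by 2 to 78 at the other 3. Summits of the 3 lists lay within 1 bp of each other at zyg-1, 2 bp at sas-5, 4 bp at sas-6, 8 bp at air-1 and 15 bp at spd-2. No test between conditions was possible, because both samples belong to 1 group.

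**Figure D3:**
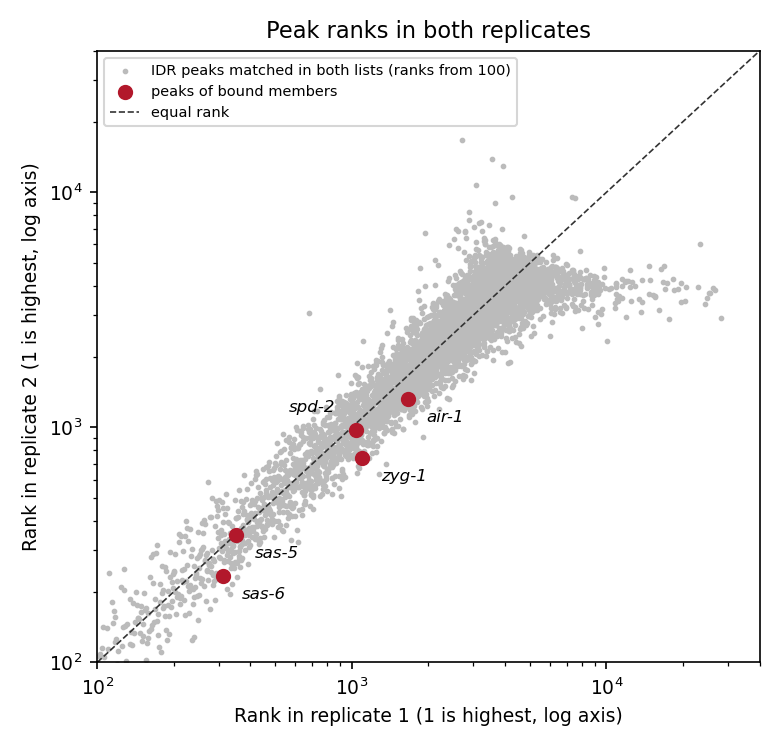
Rank of each IDR peak in the list of replicate 1 (horizontal) and replicate 2 (vertical), both on log axes from rank 100, with equal rank as a dashed line. The peaks of the 5 bound genes lie on or to the right of that line, sas-5 with ranks 350 and 348 nearly on it and zyg-1 with 1099 and 742 differing the most.

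The 5 bound starts had summits at similar distances, mostly with a neighbour on the opposite strand. The summits ran from -162 bp at air-1 to -59 bp at sas-5, with a median of -101 bp, against -170 bp (quartiles -280 and -97) over all bound genes. The summit also lay in the window of an opposite-strand gene for 4 of the 5, as it did for 41.8% of all bound genes. GC content in the 201 bp around the summit ran from 30.3% at spd-2 to 44.8% at sas-5, against a median of 42.3% ± 6.99 (SD) over all IDR summits.

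The E2F consensus of 7 bases was present within 100 bp of the summit at 2 of the 5 bound genes, sas-5 and spd-2. It was centred 28 bp downstream of the summit at sas-5 and 25 bp downstream at spd-2. At sas-6 the only match in the window, TTCCCGC, was centred at -164 bp from the summit and so beyond the searched distance. No match lay anywhere in the windows of zyg-1 and air-1. Among all IDR summits 17.5% held the consensus, among promoter summits 19.9%, and among windows of the same 201 bp centred 150 bp upstream of every protein-coding start 6.89%.

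The core of 5 bases was present within 100 bp of the summit at all 5 bound genes. It occurred at 48.9% of IDR summits, 56.2% of promoter summits and 16.8% of windows at all starts. Its nearest copy was centred at -4 bp from the summit at air-1, -15 bp at sas-5, 19 bp at sas-6, 26 bp at spd-2 and -60 bp at zyg-1. Of the IDR peaks near unbound members, the peak before F10E9.11 held the consensus. The weaker peak in spd-5 and that at -635 bp from zyg-9 held the core alone. The stronger peak in spd-5, that at rpac-19 and a peak downstream of zyg-9 (score 68.8) held neither. The cell cycle genes homology region is TTNGAA with N a C or T, known from promoters bound by the DREAM complex, which holds an E2F protein among other subunits. It was found at 3 of the 5 summits (spd-2, zyg-1 and air-1). The shares were 44.8% of IDR summits, 52.4% of promoter summits and 55.9% of windows at all starts. A match is a run of letters and was not tested as a binding site.

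Many other genes of the pathway were bound too. Of 29 further genes of centriole assembly, pericentriolar material, its regulators and centrosome attachment, 13 were bound (44.8%, against 15.2% of all protein-coding genes). Of these, 11 (84.6%) were among the upper ranks of that set, against 68.4% of all bound genes. Their median score was 586.4, with a range of 80.5 to 3807.5. The peak at 80.5 had no replicate 1 summit within 100 bp and ranked 3556 in replicate 2. The strongest was szy-20, an RNA-binding protein gene found as a suppressor of zyg-1, with a score of 3807.5 (rank 92) and ranks of 84 and 99 in replicates 1 and 2.

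The next were hyls-1, a centriole protein gene needed for cilia, with a score of 2512.4 (rank 193), and rsa-2, which recruits a phosphatase to the centrosome, with 2177 (rank 242). They were followed by pcmd-1, whose product tethers the pericentriolar scaffold to centrioles, with 1436.8 (rank 406), and rsa-1, the regulatory subunit of that phosphatase, with 1261.6 (rank 464). Of the 13, 4 shared their peak with another gene, among them hyls-1 with hpo-9, pcmd-1 with dhhc-7 and rsa-1 with clec-87. The Polo-like kinase gene plk-1, named after its value was seen as the partner of air-1 in maturation, had a score of 589.9 (rank 951).

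The other 16 genes were not bound. The first of them in list order were sas-1, which stabilises centrioles, tac-1, the partner of zyg-9, gip-2, the partner of gip-1, tpxl-1, the activator of air-1, and sur-6, a phosphatase subunit gene. No pooled summit lay in the windows of sas-1, tac-1 and tpxl-1, while gip-2 had a score of 10.4 and sur-6 one of 25.3. Over all 16, 8 had no pooled summit in the window and the other 8 had scores from 10.4 to 25.3. Possible downstream genes made up 4 of the 16, against 5 of all 29 (17.2%) and 18.1% of all protein-coding genes. Among the 4 was tpxl-1, in a run that starts at icp-1 with a bound peak of score 429.4.

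**Figure D4:**
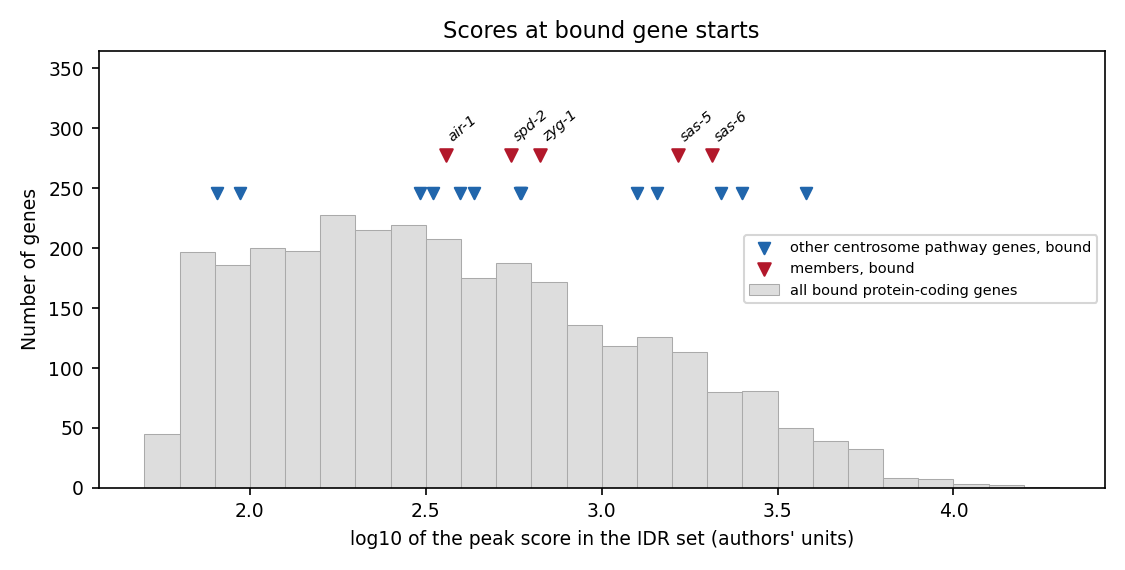
Distribution of the log10 peak score over the 3027 bound protein-coding genes (grey bars, number of genes), with the 5 bound members and the 13 other bound centrosome pathway genes marked above as triangles. The members sit at scores from 360.2 to 2056, above the median of 325.3.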

How the data were processed

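EFL-1 ChIP-seq was analysed from ce11 peak lists of 2 biological replicates; library fragments were 150 to 350 bp, per the labels. Per the authors' file descriptions, relaxed lists came from each replicate, and from both, with a control. The IDR set was identical to the 4835 top pooled peaks. The peak score and the −log10 q are values the authors deposited, the score on a scale that is not given in the sources used here. Peak caller, aligner and read numbers are likewise not given, so the depth is unknown and no interval was computed. Signal tracks and ce10 lists were not used.

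Genes and starts came from Ensembl release 115 (WBcel235, the same assembly as ce11), and sequence from RefSeq. Summits were assigned with Python 3.11.15, numpy 2.4.6 and pandas 2.3.3, and the calling, matching and motif code was tested on planted summits and motifs. Comparisons are descriptive and no p-value was computed. The members, lists and rules were chosen with earlier results of these data known. All members were named, with genes sharing their peaks, the nearest neighbours, and of the other pathway genes the 5 strongest bound and first 5 unbound; plk-1 and other neighbours were added later.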

Additional observations from a re-analysis of the deposited data

How the results depend on the processing

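Across 38 alternatives to the counts and shares, 33 stayed within 1.5 times the reported value. With the window of 1000 bp upstream to 500 bp downstream, 9 members were bound, against 19.1% of all genes. With any pooled relaxed summit, 8 members, 21 other pathway genes and 32.7% of all protein-coding genes were called. With the core of 5 bases, 5 of 5 member peaks held a match instead of 2. Leaving out a replicate gave 5 to 7 members, 12 to 13 other pathway genes and 14.8% to 15.3% of all genes. Giving each summit only to the nearest start kept 5 members, against 17.2% of all genes. The set changed: sas-6 and air-1 were lost to neighbours, and spd-5 and zyg-9 were gained. With peak intervals in place of summits, spd-5 and zyg-9 were added, for 7 members, against 16.7% of all genes. Counting through the first gene of a run, and leaving out possible downstream genes, were added after seeing the data. No paired analysis was possible because the series has 1 group. Depth is unknown, so an unbound start may be occupied below what these lists show.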
